A study of Mus musculus with 25 samples.

Results

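The inflammasome and pyroptosis genes described here are Nlrp3, Nlrc4, Aim2, Naip5, Naip2 and Mefv (sensors), Pycard (adaptor), Casp1 and Casp4 (caspases) and Gsdmd (pore-forming protein). They were chosen by symbol, with no measured value in the rule but with earlier results of these data known. They are 10 of the 54752 genes in the count tables. RNA of whole epididymal (eWAT) and inguinal (iWAT) white adipose tissue from male C57BL/6N mice was sequenced in 25 libraries. Wild type mice on normal diet (ND) gave 4 eWAT and 3 iWAT libraries, wild type mice on high-fat diet (HFD) gave 5 and 5, and Acod1-/- mice on HFD gave 5 and 3. The HFD supplied 60% of calories as fat, began at 5 weeks of age and ran for 16 weeks, although iWAT Acod1-/- libraries 2 and 3 carry labels of 17 and 18 weeks. Acod1-/- mice lack Acod1, the enzyme that makes itaconate, in every cell and from before birth, and no ND-fed Acod1-/- library was analysed here, so genotype was compared on HFD alone. The knockout is a single engineered allele on C57BL/6N, and the study's methods describe wild type littermates from heterozygous breeding and single housing. Whether the eWAT and iWAT libraries of 1 number came from 1 mouse was not given in the labels, and p-values measure the spread between the libraries.

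An inflammasome is a cytosolic complex in which a sensor that has met a microbial or danger signal recruits the adaptor ASC, encoded by Pycard, and so activates caspase-1. Caspase-1 matures interleukin-1β and interleukin-18 and cuts gasdermin D, whose fragments form pores that can end in the lytic cell death called pyroptosis, while caspase-11, encoded by Casp4 in the mouse, cuts gasdermin D after sensing cytosolic lipopolysaccharide. Macrophages are a main site of this machinery, and adipose tissue of obese mice is known to accumulate them. RNA levels show the supply of these components, not the assembly or activity of the complex.

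The sequences show what the genes' regulatory regions and close relatives look like at the level of bases. RefSeq tables (GRCm38.p6) held the 250 bases before a start for 9 of the 10 genes, all but Gsdmd. The windows of Pycard and Aim2 are shown because both hold the letters GAGGAAGT, the binding letters of PU.1 and related ETS factors, in capitals. In Pycard (chr7:127993868-127994117, minus strand) the match reads on the opposite strand at -44 to -37 from the start, and in Aim2 (chr1:173420354-173420603, plus strand) it lies at -113 to -106.
Pycard: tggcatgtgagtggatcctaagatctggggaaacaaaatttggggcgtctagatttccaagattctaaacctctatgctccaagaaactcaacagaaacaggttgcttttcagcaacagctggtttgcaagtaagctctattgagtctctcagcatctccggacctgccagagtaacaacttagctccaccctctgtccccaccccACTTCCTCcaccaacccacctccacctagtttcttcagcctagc
Aim2: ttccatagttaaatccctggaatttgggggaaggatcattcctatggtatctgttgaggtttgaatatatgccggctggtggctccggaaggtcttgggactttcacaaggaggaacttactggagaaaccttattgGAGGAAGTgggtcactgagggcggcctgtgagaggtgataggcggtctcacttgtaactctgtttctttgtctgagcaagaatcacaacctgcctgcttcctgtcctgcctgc

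The window of Casp4 (chr9:5308599-5308848, plus strand) is shown for 2 matches to NF-kB letters (GGG, any 2 bases, TTTCC), in capitals, at -93 to -84 and at -14 to -5, the latter on the opposite strand. The window of its neighbour Casp1 (chr9:5298267-5298516, plus strand) had no match to any motif searched and is shown for comparison.
Casp4: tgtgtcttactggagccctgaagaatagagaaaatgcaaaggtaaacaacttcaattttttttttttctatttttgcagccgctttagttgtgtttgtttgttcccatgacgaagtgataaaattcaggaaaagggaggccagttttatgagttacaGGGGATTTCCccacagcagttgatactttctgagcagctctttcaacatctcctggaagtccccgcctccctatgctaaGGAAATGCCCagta
Casp1: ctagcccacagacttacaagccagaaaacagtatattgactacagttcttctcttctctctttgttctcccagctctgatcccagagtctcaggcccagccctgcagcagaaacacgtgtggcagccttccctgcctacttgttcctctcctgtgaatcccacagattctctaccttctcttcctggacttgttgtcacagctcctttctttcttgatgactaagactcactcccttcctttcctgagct

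Both strands were searched. GAGGAAGT was found in 2 of the 9 genes and in 2.45% of 32536 RefSeq promoter windows, and the NF-kB letters in 1 of 9 against 1.4%. TATAAA was found in 1 of 9, Naip5, against 12.3%. The interferon-response letters (GAAA, any 2 bases, GAAA; 2.98% of windows) and the STAT letters (TTC, any 3 bases, GAA; 7.04%) were found in none of the 9. A match describes letters and is not evidence of binding. Naip2 and Naip5 are close copies, and their longest identical coding stretch, 140 bases, is shown because a read from it could come from either gene (coding bases 1746 to 1885 of 4341 in Naip2 and 1614 to 1753 of 4209 in Naip5, GENCODE M21).
Naip2 and Naip5: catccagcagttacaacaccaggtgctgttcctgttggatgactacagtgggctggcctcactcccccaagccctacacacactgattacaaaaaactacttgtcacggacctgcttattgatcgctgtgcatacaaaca

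Of all 50-base words in the Naip5 transcripts, 22.3% also occurred in Naip6, 13.8% in Naip1 and 8.83% in Naip2, and of those in Naip2 9.4% occurred in Naip5. Casp1 and Casp4 shared none. The Naip values are therefore uncertain. The Aim2 model overlaps Cadm3 on the other strand, Pycard overlaps the unclassified model Gm45205 on the other strand, and Nlrc4 and Naip2 overlap pseudogenes, and whether the counting used strand was not given in the sources used here.

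The libraries held 31.41 to 52.34 M counted reads (median 42.09 M). The prefix of the library numbers in the column headers divides them into 2 sets, called series 1 and series 2 here, and the headers do not say what the prefix stands for. Series 2 holds every ND library and eWAT wild type HFD library 5, eWAT Acod1-/- library 5, iWAT wild type HFD library 5 and iWAT Acod1-/- library 3, so that diet and series nearly coincide. Acod1 had 0 to 9 counts per library in every group, too few to check the genotype labels. Adipocyte markers summed to 18600 to 47020 CPM (counts scaled to equal library size, here with TMM factors) in all libraries, the mesothelial markers of epididymal fat to 25.5 to 114 CPM in eWAT and at most 0.982 in iWAT, and Tbx15 with En1, markers of inguinal fat, to 14.3 to 33.8 CPM in iWAT and at most 0.733 in eWAT. Genes of other tissues stood out in some libraries: skeletal muscle genes summed to 5405 CPM in iWAT ND library 1 and keratin genes with Epcam to 531 CPM in iWAT Acod1-/- library 2. Epididymis genes summed to 295 CPM in eWAT ND library 2, 43.8 in eWAT ND library 3 and 116 in eWAT Acod1-/- library 1. Keratin genes with Epcam summed to 312 CPM in eWAT ND library 2.

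Levels between genes were compared per length, as the deposited FPKM, which divides fragments by transcript length in kilobases and by library depth. In eWAT of HFD-fed wild type mice the order began with Casp1 (41.2 ± 11.8 FPKM, SD, n = 5), followed by Gsdmd (11.3 ± 5.18), Pycard (6.94 ± 3.17), Casp4 (6.39 ± 1.1), Aim2 (3.58 ± 2.09), Naip2 (2.89 ± 1.13), Naip5 (2.73 ± 1.8), Nlrc4 (1.39 ± 0.993), Nlrp3 (0.354 ± 0.204) and Mefv (0.199 ± 0.155). Casp1 lay above Gsdmd in every library, whereas each later neighbour in this order overlapped the next. On ND the order was not resolved at the top: Casp1 (8.59 ± 0.937, n = 4) and Gsdmd (8.26 ± 1.33) overlapped in eWAT, as did Gsdmd (16.2 ± 2.5, n = 3) and Casp1 (15.2 ± 5.07) in iWAT. Casp1 had the highest mean in the other groups. Nlrp3 and Mefv were the lowest in all 6 groups, and with means under 1 CPM they were not tested with the other 8 genes.

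The diet comparison asked how chronic HFD changed these genes in wild type mice, and the genotype comparison whether loss of Acod1 changed them on HFD. In eWAT, 7 of the 8 tested genes were higher after HFD, by 2.52-fold for Casp4 to 5.51-fold for Pycard, and Gsdmd was not called. All 8 were lower in HFD-fed Acod1-/- than in HFD-fed wild type eWAT, from the sensors to the pore protein. A call is an adjusted p under 0.1 in edgeR's quasi-likelihood test with Benjamini-Hochberg adjustment over all genes tested. Over all 14936 genes, 51.8% were called with diet (24.8% higher) and 19.9% with genotype (10.8% lower). The median log2 change of the 8 was 1.43 with diet and -1.28 with genotype. Both comparisons use the same HFD-fed wild type libraries, so the 2 directions are not independent. In whole tissue, fewer cells of a type and less RNA per cell cannot be told apart. The directions held under the count-based normalizations and turned for all 8 genes in both comparisons when libraries were scaled to 13 macrophage markers in place of TMM, a scaling that moved the median of all genes by -2.47 with diet and by 2.07 with genotype.

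**Figure D1:**
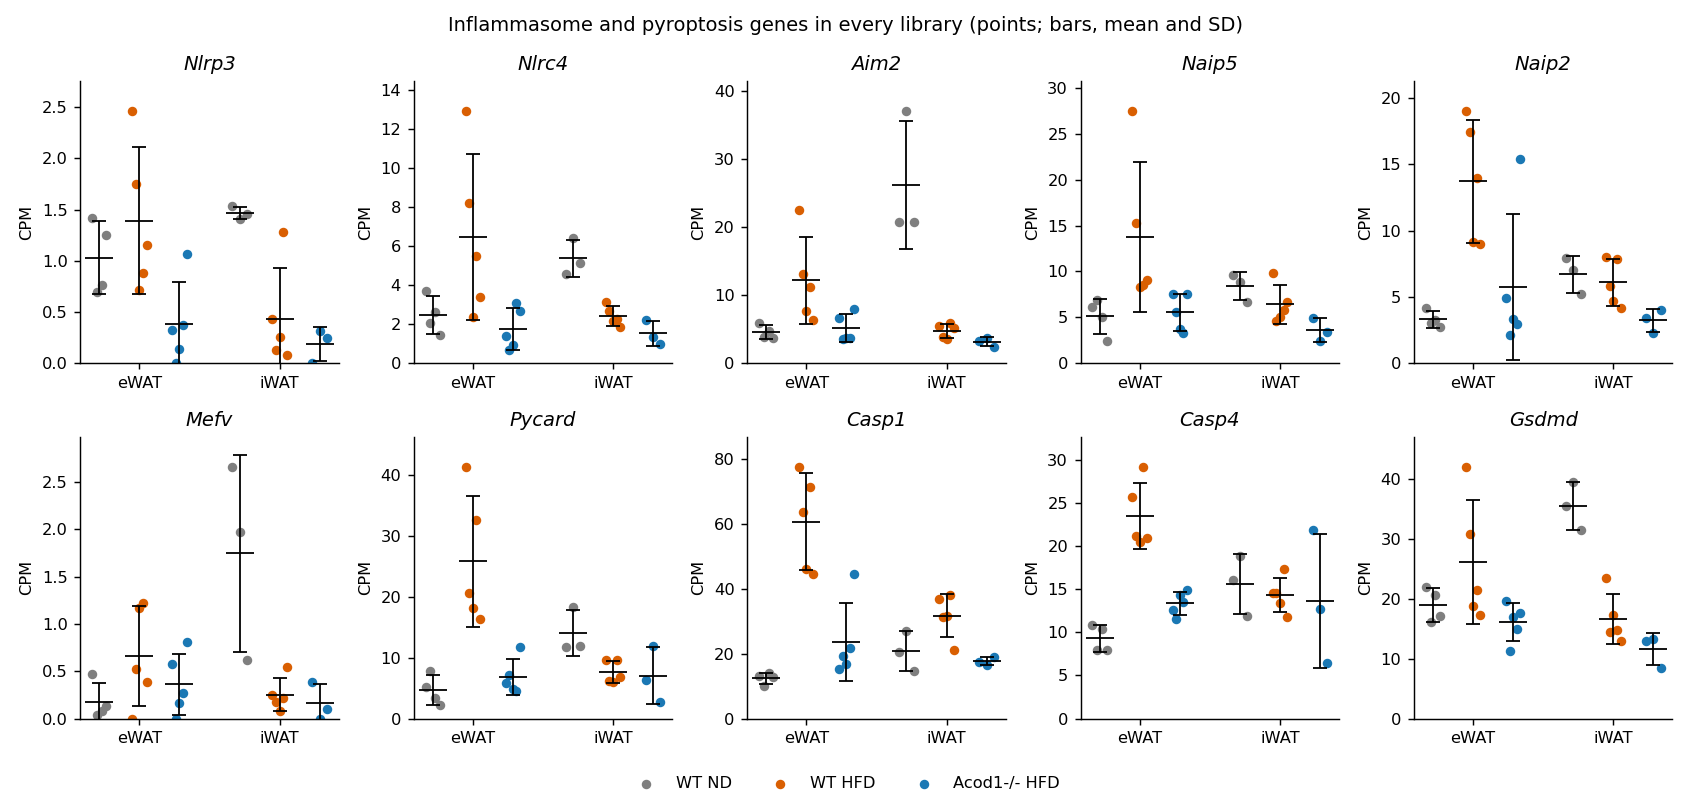
Level of each of the 10 genes in every library in CPM (TMM-scaled, vertical axis) by group, with points for libraries and bars for the mean ± SD, cut at 0. In eWAT the HFD-fed wild type libraries of Casp1 sit at 44.6 to 77.6 CPM against 10.1 to 14 on ND, and in iWAT the ND libraries of Aim2 sit at 20.7 to 37 CPM against 3.6 to 5.88 on HFD.

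Among the sensors, Aim2, which binds cytosolic double-stranded DNA, had 5.89, 3.83, 4.75 and 3.63 CPM in ND-fed eWAT (libraries in number order, here and below). It reached 22.5, 13.1, 7.69, 11.2 and 6.31 in HFD-fed wild type and 6.66, 3.57, 3.74, 3.64 and 7.92 CPM in Acod1-/- libraries. Every HFD-fed wild type library lay above every ND library, and Acod1-/- libraries 1 and 5 overlapped the lower HFD-fed wild type values. Aim2 rose with HFD by 1.43 ± 0.38 on the log2 scale (SE, adjusted p = 0.00903) and was lower in Acod1-/- eWAT by a log2 change of -1.25 ± 0.35 (adjusted p = 0.0347).

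Nlrc4 carries the signal of NAIP proteins that have bound flagellin or type III secretion parts. Its ND values were 3.7, 2.04, 2.63 and 1.42 CPM, its HFD-fed wild type values 12.9, 8.2, 2.34, 5.47 and 3.37, and its Acod1-/- values 1.4, 0.691, 0.901, 3.08 and 2.66. The HFD-fed wild type libraries spread widely and overlapped both other groups. The diet change was 1.40 ± 0.55 (adjusted p = 0.054) and the genotype change -1.88 ± 0.52 (adjusted p = 0.0338). Leaving out ND library 2 ended the diet call (adjusted p = 0.11), as did leaving out ND library 4 (0.135) or HFD library 1 (0.145) and when the series was a term of the fit (0.201) or the replicate number a block (0.115).

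Naip5, which binds flagellin, had 6.12, 6.85, 5 and 2.44 CPM on ND, 27.5, 15.3, 8.36, 8.5 and 9.09 in HFD-fed wild type and 7.58, 5.53, 3.69, 3.3 and 7.57 in Acod1-/- eWAT. The HFD-fed wild type values lay above both other groups, with the lowest of them, 8.36, close to the highest Acod1-/- value. The diet change was 1.43 ± 0.42 (adjusted p = 0.016) and the genotype change -1.31 ± 0.39 (adjusted p = 0.0458), the latter lost when wild type HFD library 1 (0.132) or Acod1-/- libraries 3 (0.107) or 4 (0.105) were each left out.

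Naip2, which binds the secretion system rod, had 4.18, 3.04, 3.26 and 2.69 CPM on ND and 19, 17.4, 9.14, 14 and 8.97 in HFD-fed wild type eWAT. Acod1-/- libraries had 4.92, 2.15, 3.3, 2.92 and 15.4 CPM. Acod1-/- library 5 lay inside the HFD-fed wild type range and the other 4 near the ND range. Naip2 rose with HFD by 2.06 ± 0.51 (adjusted p = 0.0069), and its genotype change of -1.25 ± 0.46 (adjusted p = 0.0911) became -2.05 (adjusted p = 0.00119) without Acod1-/- library 5. In that library the macrophage markers summed to 1316 CPM, against 452 to 745 in the other 4, and their part in the value was not tested. The genotype call of Naip2 was lost in 9 of 14 fits that each left out 1 library, namely without ND libraries 3 or 4, wild type HFD libraries 1, 2 or 4, or Acod1-/- libraries 1 to 4. It was also lost without the low-count filter (adjusted p = 0.12) and with only the groups compared in the fit (0.146).

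Nlrp3, the sensor of potassium efflux and crystals, stayed low at 0.693 to 1.42 CPM on ND, 0.71 to 2.46 in HFD-fed wild type and 0 to 1.07 in Acod1-/- eWAT. The library at 0, Acod1-/- library 2, allows up to 0.115 CPM by a floor of 3 counts, which covers counting error only. The groups overlapped, and without the filter on low counts neither the diet change of 0.45 ± 0.76 (adjusted p = 0.745) nor the genotype change of -1.86 ± 0.74 (adjusted p = 0.178) was called. Mefv, which encodes the sensor pyrin, had 0 to 1.22 CPM over the eWAT libraries, and neither change was called (adjusted p = 0.284 and 0.687).

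Pycard, which encodes the adaptor ASC, had 5.26, 7.82, 3.44 and 2.28 CPM on ND, 41.4, 20.7, 18.2, 32.7 and 16.4 in HFD-fed wild type and 5.84, 7.11, 4.94, 4.5 and 11.8 in Acod1-/- eWAT. The HFD-fed wild type libraries lay apart from both other groups, which overlapped each other. Pycard had the largest diet change of the 8 genes, 2.46 ± 0.41 (adjusted p = 0.000846), and a genotype change of -1.92 ± 0.37 (adjusted p = 0.0115), and both were called in each fit that left out 1 library.

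Casp1, the caspase that cuts pro-interleukin-1β and gasdermin D, had 13.1, 10.1, 14 and 12.7 CPM on ND. It had 77.6, 63.8, 46, 71.5 and 44.6 CPM in HFD-fed wild type eWAT and 15.4, 19.3, 16.8, 21.9 and 44.5 CPM in Acod1-/- eWAT. The HFD-fed wild type values lay above both other groups, though the last Acod1-/- library, 44.5, came just under the lowest of them, 44.6. Casp1 rose with HFD by 2.28 ± 0.3 (adjusted p = 0.000286) and was lower in Acod1-/- eWAT at -1.36 ± 0.27 (adjusted p = 0.0118).

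Casp4, the lipopolysaccharide-sensing caspase-11, had 10.9, 7.95, 10.4 and 8 CPM on ND, 25.7, 21.2, 20.5, 29.2 and 21 in HFD-fed wild type and 12.6, 11.6, 14.3, 13.5 and 14.9 in Acod1-/- eWAT. The 3 groups did not overlap, with Acod1-/- between the others. Its diet change, 1.34 ± 0.15 (adjusted p = 0.000172), and its genotype change, -0.82 ± 0.14 (adjusted p = 0.011), had the smallest SE of the 8 genes.

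Gsdmd, the pore-forming end of the pathway, moved least. It had 22, 16.2, 20.7 and 17.1 CPM on ND, 42.1, 30.9, 18.8, 21.5 and 17.3 in HFD-fed wild type and 19.7, 11.3, 17, 15 and 17.7 in Acod1-/- eWAT. Only HFD-fed wild type libraries 1 and 2 exceeded the ND range, and the groups overlapped. The diet change of 0.46 ± 0.25 was not called (adjusted p = 0.146) unless HFD library 3 (0.56, adjusted p = 0.0959) or 5 (0.58, adjusted p = 0.0717) was left out, and it was 0.22 (adjusted p = 0.394) without HFD library 1. The genotype change of -0.70 ± 0.23 was called (adjusted p = 0.0664), but not without wild type HFD library 1 (-0.47, adjusted p = 0.158), Acod1-/- libraries 2, 3 or 4 or the second wild type HFD library (0.113 to 0.129), and not with only the groups compared in the fit (0.11).

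Groups did not overlap for 6 of the 8 genes with diet, beside 35.2% of all genes tested (17.2% with HFD higher), and for 4 of 8 with genotype, Pycard, Casp1, Casp4 and Naip5, beside 7.14% (4.34% with Acod1-/- lower). Wild type HFD library 1 had the highest value of its group for 8 of the 10 genes and the highest macrophage marker sum, 4827 CPM. Without it, 5 of the 8 genes were called with genotype, and Gsdmd, Naip5 and Naip2 were not. The number was also 5 without Acod1-/- library 3 or Acod1-/- library 4. Without Acod1-/- library 5 all 8 were called, at -2.22 to -0.74, and within series 1 alone all 8 were called at -2.35 to -0.85, beside 25.9% of genes. For the eWAT fits that left out 1 library the share of all genes called is not given. Whether these counts moved with those of all genes can therefore not be told. Within series 2, HFD-fed wild type eWAT had 1 library, which lay above all 4 ND libraries for Casp1, Pycard, Casp4, Aim2, Naip5 and Naip2 and inside their range for Nlrc4 and Gsdmd. The single Acod1-/- eWAT library of series 2 was higher than this wild type library for Aim2, Naip2 and Gsdmd, level with it for Casp1 (44.5 and 44.6 CPM) and lower for Nlrc4, Pycard, Casp4 and Naip5.

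**Figure D2:**
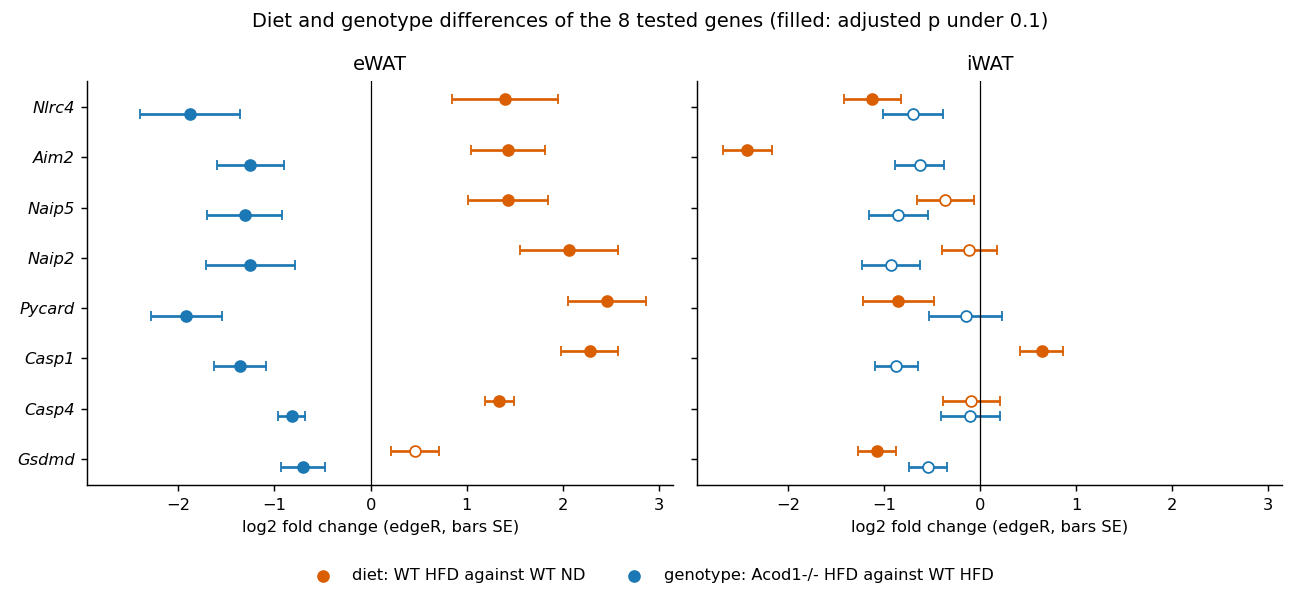
Log2 fold change with SE (horizontal axis) of the 8 tested genes for diet and for genotype in eWAT and in iWAT, TMM-scaled. In eWAT diet changes run from 0.46 to 2.46 and genotype changes from -1.92 to -0.70, all turning sign when scaled to macrophage markers, and in iWAT diet changes run from -2.42 for Aim2 to 0.64 for Casp1, the latter turning sign under that scaling.

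HFD-fed Acod1-/- and ND-fed wild type eWAT, which differ in both diet and genotype, differed in 2 of the 8 genes. Casp1 was higher in the former by 0.92 on the log2 scale (adjusted p = 0.0442) and Casp4 by 0.52 (adjusted p = 0.0338), and both had groups that did not overlap. Across all genes 26.5% were called (13.5% higher) and 17.5% had groups apart (8.19% higher). The other 6 ran from -0.48 to 0.80 and were not called. Only 1 of the 8 was called without ND library 2, with the series as a term or with the replicate number as a block, and none when scaled to macrophage markers, beside 4.12% of genes.

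The macrophage markers moved with these genes. All 13 rose with diet and all 13 fell with genotype in eWAT, among them Adgre1 (2.87 ± 0.67, adjusted p = 0.0049, and -2.48 ± 0.61, adjusted p = 0.0219), Csf1r (1.66 and -1.67) and Cd68 (3.89 and -2.70). Their summed level was 415 to 678 CPM on ND, 1398 to 4827 in HFD-fed wild type and 452 to 1316 in Acod1-/- eWAT. The leukocyte gene Ptprc changed by 1.81 and -1.53, and the neutrophil markers summed to 3.92 to 6.77, 30.4 to 56.5 and 5.38 to 42.5 CPM in the same groups, with S100a8 at 4.05 ± 0.72 (adjusted p = 0.00107) and -1.46 ± 0.58 (adjusted p = 0.116). Most of the neutrophil sum in HFD-fed wild type eWAT was S100a8, at 23.2 to 50.6 CPM. There Csf3r had 2.66 to 6.68 CPM, S100a9 at most 0.804, and Ly6g, Cxcr2, Retnlg and Mpo at most 0.181. Elane had 0.467 to 1.72 CPM on ND and 0.189 to 0.778 in HFD-fed wild type eWAT. Mast cell markers summed to 12.8 to 30.5 CPM on ND, 21.3 to 189 in HFD-fed wild type and 17.9 to 34.2 in Acod1-/- eWAT. The part of these cells in the changes was not tested.

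Relative to the macrophage markers, the order of the 8 genes in eWAT differed. With diet, Pycard (-0.18, adjusted p = 0.687), Casp1 (-0.28, adjusted p = 0.426) and Naip2 (-0.51, adjusted p = 0.235) were not called, while Gsdmd (-2.13), Nlrc4 (-1.28), Aim2 (-1.23), Naip5 (-1.20) and Casp4 (-1.12) were lower. With genotype, Gsdmd (1.48), Casp4 (1.26), Aim2 (0.89), Naip5 (0.85) and Casp1 (0.62) were higher, and Naip2 (0.55), Nlrc4 (0.25) and Pycard (0.19) were not called. Under this scaling 94.2% of all genes were called lower with diet and 93.8% higher with genotype.

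Over the 14 eWAT libraries, which share tissue and marker-rich libraries, the log2 CPM of Casp1 and of Aim2 each followed the macrophage sum with r = 0.95, Naip2 with 0.94, Pycard and Casp4 with 0.91, Nlrc4 with 0.83, Naip5 with 0.82 and Gsdmd with 0.74. The neutrophil sum, most of which was S100a8 in HFD-fed wild type eWAT, was about as close for Casp1 (0.94), Casp4 (0.88), Naip2 (0.86) and Pycard (0.83). The 28 pairs of the 8 genes had r of 0.53 to 0.94 (median 0.82) in eWAT. Over the 11 iWAT libraries the pairs ran from -0.09 to 0.95 (median 0.58), and the genes divided. There Casp1 followed the macrophage sum at r = 0.87 and Naip2 at 0.63, while Aim2 had -0.06, Gsdmd 0.08 and Pycard 0.11. The B cell sum in iWAT had r of 0.93 with Aim2, 0.81 with Gsdmd, 0.80 with Nlrc4 and -0.32 with Casp1. These r describe the libraries and carry the differences between groups, since the HFD-fed wild type libraries form the high end of both measures in eWAT and the ND libraries the high end of the B cell sum in iWAT.

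**Figure D3:**
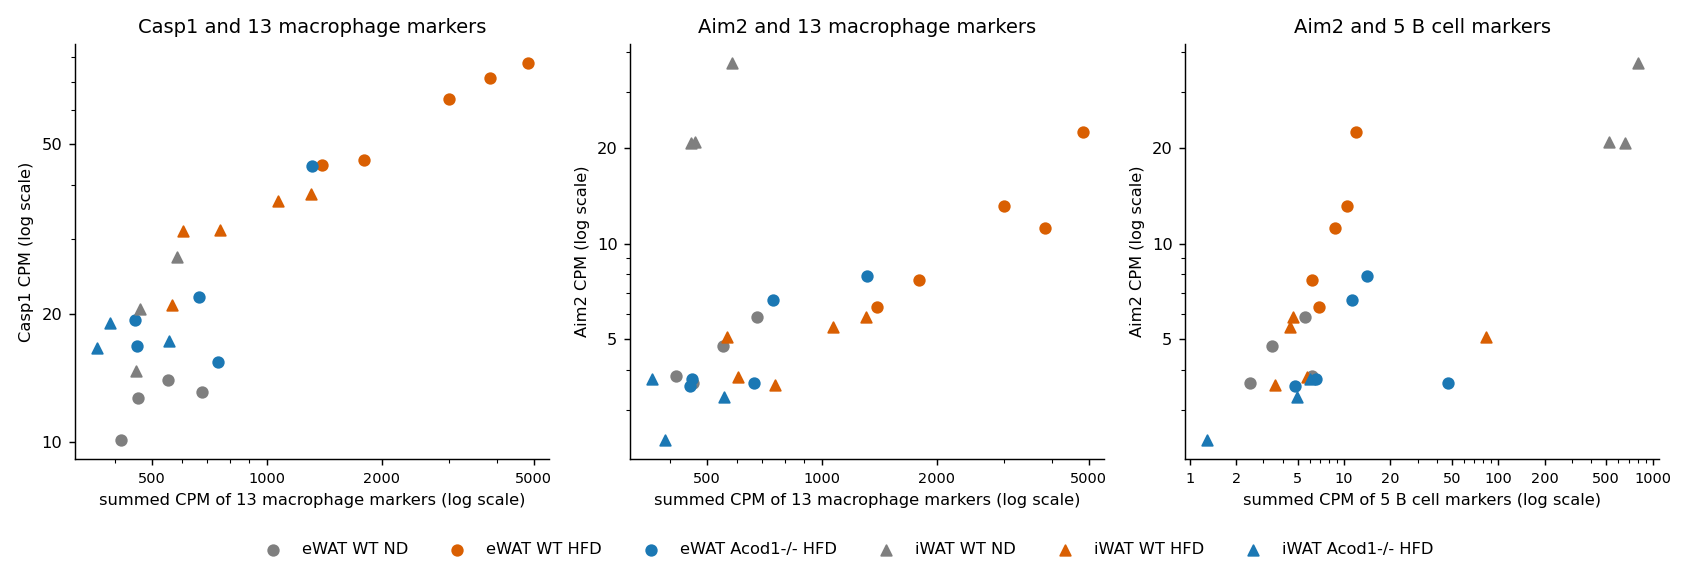
Level of Casp1 and Aim2 (vertical axes, CPM, log scale) against the summed CPM of 13 macrophage or 5 B cell markers (horizontal axes, log scale), 1 point per library, with colour for group, circles for eWAT and triangles for iWAT. In eWAT the Casp1 points follow the macrophage sum (r = 0.95, n = 14), and the 3 ND iWAT libraries stand apart with 20.7 to 37 CPM of Aim2 and 523 to 801 CPM of B cell markers.

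In iWAT most genes that were called with diet were lower, not higher. Aim2, Gsdmd, Nlrc4 and Pycard were lower after HFD and Casp1 alone was higher, 5 of 8 genes called beside 50.1% of all 14801 (24.2% lower, 25.9% higher). Groups did not overlap for Aim2, Gsdmd, Nlrc4 and Pycard and for the low-count Nlrp3 and Mefv, beside 47.1% of genes tested (24.1% lower). The rise of Casp1 turned to -0.28 when scaled to macrophage markers, under which the median of all genes moved by -0.88.

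Aim2 had 20.8, 37 and 20.7 CPM in ND-fed iWAT, 5.47, 3.81, 3.6, 5.88 and 5.08 in HFD-fed wild type and 3.3, 3.74 and 2.41 in Acod1-/- iWAT. All 3 ND libraries lay far above every HFD-fed library. Aim2 fell with HFD by 2.42 on the log2 scale (SE 0.25, adjusted p = 0.000101). This was the largest change of the 8 genes in iWAT.

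Gsdmd had 35.5, 39.5 and 31.6 CPM on ND, 23.5, 14.4, 17.3, 14.8 and 13 in HFD-fed wild type and 13, 13.3 and 8.49 in Acod1-/- iWAT, and every HFD-fed library lay below every ND library. Its diet change was -1.07 ± 0.2 (adjusted p = 0.00165). Nlrc4 had 4.56, 6.4 and 5.12 CPM on ND, 3.11, 2.68, 2.15, 2.24 and 1.87 in HFD-fed wild type and 2.22, 1.33 and 0.997 in Acod1-/- iWAT, with a diet change of -1.12 ± 0.3 (adjusted p = 0.0112). Again no HFD-fed library reached the ND range.

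Pycard had 11.8, 18.4 and 12 CPM on ND, 9.7, 6.11, 6.08, 9.57 and 6.78 in HFD-fed wild type and 6.42, 12 and 2.72 in Acod1-/- iWAT. The wild type groups lay apart, whereas the Acod1-/- libraries spanned both. The diet change was -0.85 ± 0.37 (adjusted p = 0.0906), and it was not called in 7 of 11 fits that left out 1 library: ND libraries 1, 2 and 3, HFD-fed wild type libraries 2, 3 and 5, and Acod1-/- library 1. It was also lost without the low-count filter (adjusted p = 0.11) and with the replicate number as a block (0.145).

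Casp1 had 20.5, 27.1 and 14.7 CPM on ND, 36.8, 31.3, 31.5, 38.1 and 21 in HFD-fed wild type and 17.3, 16.6 and 19 in Acod1-/- iWAT. HFD-fed wild type library 5 fell inside the ND range and the other 4 above it. Its diet change of 0.64 ± 0.22 (adjusted p = 0.0333) was not called without ND library 3 (0.42, adjusted p = 0.158), where 3 of the 8 genes were called, or with the series as a term (0.44, adjusted p = 0.279). In series 2 alone, HFD-fed wild type library 5 lay under the ND range for 7 of the 8 genes, narrowly for Naip5 (6.64 against at least 6.65 CPM) and Casp4 (11.8 against at least 11.9), and inside it for Casp1.

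Casp4 (11.9 to 18.8 CPM on ND, 11.8 to 17.3 in HFD-fed wild type and 6.42 to 21.9 in Acod1-/- iWAT), Naip5 (6.65 to 9.64, 4.62 to 9.88 and 2.44 to 4.95) and Naip2 (5.19 to 7.9, 4.13 to 8 and 2.28 to 4.01) were not called with diet. Their log2 changes were -0.09, -0.36 and -0.11, with adjusted p of 0.836, 0.355 and 0.791. The wild type groups overlapped for all 3. Scaled to macrophage markers, which also lowered the median of all genes, they changed by -0.99, -1.28 and -1.09 (edgeR, adjusted p = 0.0226, 0.0105 and 0.0202). Without the low-count filter, Mefv fell with HFD in iWAT by 2.72 (adjusted p = 0.0318, beside 23.6% of 31603 genes called), from 2.66, 1.97 and 0.615 CPM to 0.076 to 0.542 CPM. Nlrp3, at 1.53, 1.41 and 1.46 CPM on ND and 0.0803 to 1.28 on HFD, was not called (-1.73, adjusted p = 0.203).

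Lymphocyte markers moved with the iWAT diet comparison. The 5 B cell markers summed to 523, 801 and 657 CPM in the 3 ND libraries, against 3.57 to 82.6 in HFD-fed wild type, 1.29 to 5.98 in Acod1-/- iWAT and 2.46 to 47 over eWAT. The 5 T cell markers summed to 200, 325 and 206 CPM on ND and 3.68 to 53.8 in HFD-fed wild type iWAT. All 5 of each list fell with diet, Ptprc by 2.96 (adjusted p = 6.6e-05), while 10 of 13 macrophage markers rose and 1 fell, with Adgre1 at 2.18 ± 0.38 (adjusted p = 0.00132). Their summed level was 455 to 582 CPM on ND and 565 to 1309 in HFD-fed wild type iWAT. Since all 3 ND iWAT libraries carried these lymphocyte levels, no diet value without them could be had, and their part in the changes was not tested.

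With genotype in iWAT, 0 of the 8 genes were called by edgeR, beside 0% of 14801 genes, although 6 of the 8 and 2468 of all genes had an unadjusted p under 0.05. All 8 changes were negative, from -0.93 for Naip2 (adjusted p = 0.173) and -0.87 for Casp1 (adjusted p = 0.141) to -0.10 for Casp4 (adjusted p = 0.913). Groups lay apart for Casp1 and Naip2, beside 8.26% of genes (4.59% lower). DESeq2's Wald test called those 2 genes among 1072 (7.35%). They were also called without Acod1-/- library 3 (Casp1 adjusted p = 0.0628, Naip2 0.0734), a library of series 2 labelled 18 weeks, where 17.9% of all genes were called, and within series 1 alone (14.9% of genes), while Casp1 alone was called without HFD-fed wild type library 5 (adjusted p = 0.0706), beside 1.42% of genes. All 8 signs turned when scaled to macrophage markers, with Pycard and Casp4 called beside 68.5% of genes, and those of Pycard and Casp4 also in series 1 alone (0.23 and 0.21). The macrophage markers summed to 565 to 1309 CPM in HFD-fed wild type and 359 to 554 in Acod1-/- iWAT, without overlap. HFD-fed wild type library 5 had 82.6 CPM of B cell and 53.8 CPM of T cell markers. The part of these cells in the genotype changes was not tested.

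HFD-fed Acod1-/- iWAT was lower than ND-fed wild type iWAT in 5 of 8 genes, beside 34.6% of genes called (16.1% lower). These were Aim2 (-3.05 ± 0.31, adjusted p = 0.000109), Nlrc4 (-1.82, adjusted p = 0.00342), Gsdmd (-1.61, adjusted p = 0.000687), Naip5 (-1.21, adjusted p = 0.0236) and Naip2 (-1.04, adjusted p = 0.0387). The groups lay apart for these 5, beside 36.9% of genes (19.1% lower). Casp1 (-0.22) and Casp4 (-0.19) were not called, nor was Pycard (adjusted p = 0.109). The B cell markers summed to 523 to 801 CPM in these ND libraries against 1.29 to 5.98 in Acod1-/- iWAT, and the T cell markers to 200 to 325 against 1.24 to 9.37, and their part in these differences was not tested.

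With TMM scaling, the depots differed in opposite directions on the 2 diets. In ND-fed mice Aim2 (-2.53 ± 0.37, adjusted p = 4.68e-05), Pycard (-1.58, adjusted p = 0.0124), Gsdmd (-0.90), Casp4 (-0.74) and Casp1 (-0.73, adjusted p = 0.0733) were lower in eWAT than in iWAT, beside 31.7% of 15034 genes called (14.2% lower). Without iWAT ND library 2 the number was 3. The B cell markers summed to 523 to 801 CPM in ND-fed iWAT and 2.46 to 6.22 in ND-fed eWAT. In HFD-fed wild type mice all 8 genes were higher in eWAT, from 0.65 for Gsdmd to 1.76 for Pycard, beside 18.6% of genes (10.8% higher). Without eWAT HFD-fed wild type library 1 the number was 4. The share of all genes called is not given for either of these fits that left out a library. The macrophage markers summed to 1398 to 4827 CPM in that eWAT and 565 to 1309 in iWAT, and the part of either marker list was not tested. Scaled to macrophage markers, all 8 changes were negative on both diets in wild type mice, with 6 called on each diet. Casp4 (adjusted p = 0.21) and Naip5 (0.309) were not called on ND, nor Nlrc4 (0.119) and Pycard (0.756) on HFD. The share of all genes called under this scaling is not given for these contrasts, so the counts do not set the 8 genes apart. Their log2 changes were then -2.71 to -0.87 on ND and -1.22 to -0.12 on HFD. In HFD-fed Acod1-/- mice none of the 8 was called by edgeR, beside 3.81% of genes, none reached an unadjusted p of 0.05, and adjusted p began at 0.402. DESeq2's Wald test called 892 genes there and 0 of the 8.

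The diet effect in eWAT minus that in iWAT was positive and called for all 8 genes, beside 29% of genes called (14% higher). It was largest for Aim2 (3.88 ± 0.49, adjusted p = 1.17e-05) and Pycard (3.34 ± 0.58, adjusted p = 0.000365) and smallest for Casp4 (1.46 ± 0.34, adjusted p = 0.00381). All 8 were called in each of 25 fits that left out 1 library, for which the share of all genes is not given. When scaled to macrophage markers 2 were called, beside 76.4% of genes. The lymphocyte-marked iWAT ND libraries enter each of these values. The corresponding difference of the genotype effect was called for none of the 8 by edgeR (1 of all genes, 0.00665%) or by DESeq2's Wald test (96 of all genes), with 2 of 8 at an unadjusted p under 0.05, Pycard (-1.80, adjusted p = 0.32) and Casp4 (-0.75, adjusted p = 0.446). Without the low-count filter, Mefv was also called lower in HFD-fed Acod1-/- than in ND-fed wild type iWAT (-3.36, adjusted p = 0.0473, beside 16.1% of genes), lower in eWAT than in iWAT on ND (-3.22, adjusted p = 0.0993, beside 12.8%) and different between depots in its diet effect (4.58, adjusted p = 0.0746, beside 10.3%). Nlrp3 was called in none of these 3.

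Other genes of the pathway were counted from 5 lists of 46 genes, of which 37 were tested in eWAT. With diet 15 were higher, 8 lower and 14 not called, with a median log2 change of 0.38. Over all genes 51.8% were called and 24.8% were called higher. The share of listed genes called in either direction was not far above that of all genes. The share called higher exceeded that of all genes more clearly, in lists chosen with earlier results of these data known. With genotype 11 were lower, 1 higher (Brcc3, a deubiquitinase of NLRP3, 0.24) and 25 not called, with a median of -0.21, beside 19.9% of all genes called and 10.8% lower. These 12 became 7 at an adjusted p under 0.05 and 8 to 16 when 1 library was left out, with 8 without wild type HFD library 1. All 11 that were lower with genotype were higher with diet, 2 comparisons that share the HFD-fed wild type libraries.

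Among sensors and NOD-like relatives, Nlrc3, an inhibitory NLR, changed by 2.91 with diet and -1.93 with genotype, Nlrp1b, a sensor of bacterial proteases, by 1.98 and -1.15, Nlrp10 by 1.37 and -2.19 and Ifi204, a DNA sensor of the family of Aim2, by 0.94 and -0.76. Zbp1 and Naip6 rose with diet (1.75 and 1.91) and were not called with genotype (adjusted p = 0.11 and 0.114). Nlrp6 (-2.44), Nod2 (-0.77) and Nlrx1 (-0.33) were lower with diet. The groups overlapped for Nlrp6, at 4.78, 2.52, 0.0253 and 4.74 CPM on ND and 0.284 to 0.985 in HFD-fed wild type eWAT. ND library 3 lay below every HFD-fed wild type library. The epithelial gene Krt8 had 31.7, 102, 2.75 and 28.5 CPM in the same ND libraries and 1.16 to 7.75 in HFD-fed wild type eWAT. The part of epithelial cells in the Nlrp6 value was not tested.

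Among regulators, the ATP-gated channels P2rx7 (1.13 and -1.30) and P2rx4 (1.36 and -1.27), the ATP-releasing channel Panx1 (2.04 and -1.41), the pyrin partner Pstpip1 (1.19 and -1.23) and the protease inhibitor Serpinb1a (1.61 and -0.88) rose with diet and were lower with genotype. Txnip, a thioredoxin-binding protein, fell with diet by 1.36, with Dhx33 (-0.48) and Dpp9 (-0.23). Nek7, the kinase that licenses NLRP3, was not called in either (-0.10, adjusted p = 0.384, and 0.13, adjusted p = 0.357). Among executioners, Ninj1, which ruptures the membrane of dying cells, changed by 1.43 and -0.85, and Gsdme, the gasdermin cut by caspase-3, by 1.41 with diet and -0.16 with genotype (adjusted p = 0.733), with Casp12 at 0.56 with diet.

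Of the cytokine genes, Il1rn, the interleukin-1 receptor antagonist, changed by 4.12 ± 1.1 with diet (adjusted p = 0.0116) and -2.92 ± 0.98 with genotype (adjusted p = 0.0674). Il18 was not called in either (0.18, adjusted p = 0.626, and -0.23, adjusted p = 0.601), at 2.77 to 8.1 CPM over eWAT. Il1b had 0 to 0.563 CPM in every library and was not tested. Il1r1 (-1.11) and Il18r1 (-0.63) were lower with diet.

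**Figure D4:**
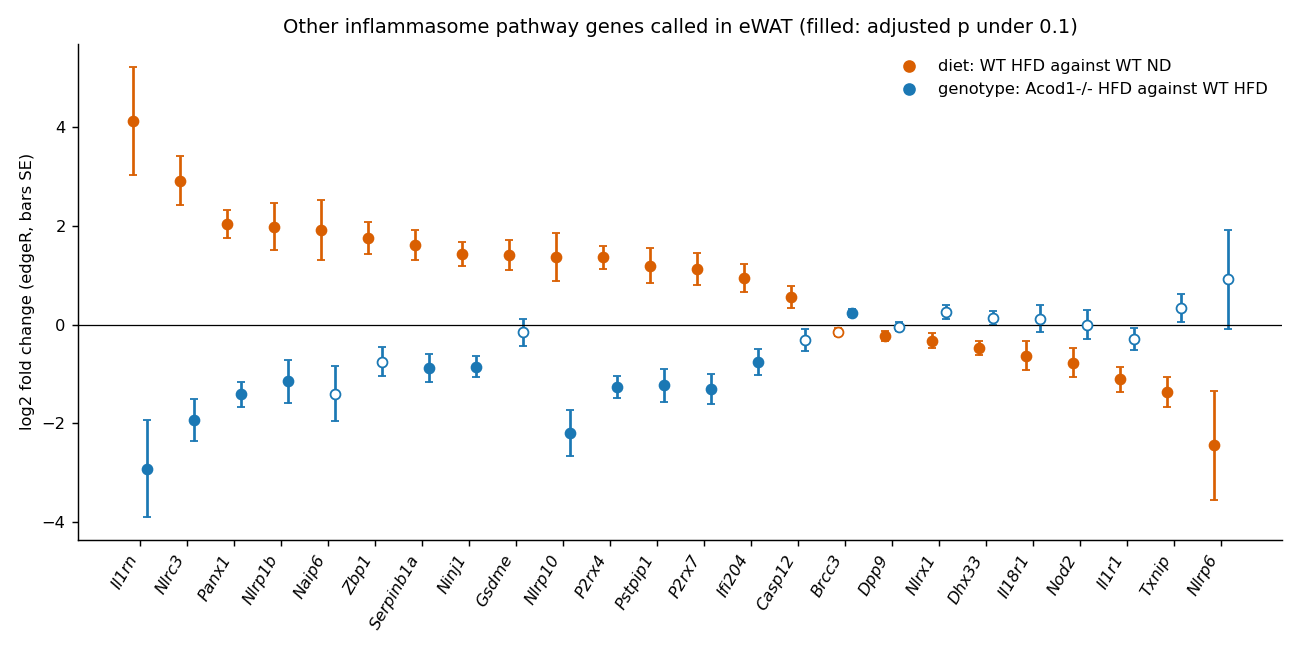
Log2 fold change with SE (vertical axis, TMM-scaled) of the 24 other pathway genes called in eWAT with diet (orange) or genotype (blue), ordered by diet change, with filled points for an adjusted p under 0.1. Il1rn lies farthest from 0 at 4.12 with diet and -2.92 with genotype, and Nlrp6 lowest with diet at -2.44, although its ND and HFD libraries overlapped.

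In iWAT, 38 of the listed genes were tested, and with diet 10 were higher and 12 lower, a share called near the 50.1% of all genes (25.9% higher, 24.2% lower). The higher ones were Nlrp6 (5.01, from 0 to 0.282 CPM on ND to 1.62 to 5.8 on HFD), Gsdme (3.32 ± 0.49, adjusted p = 0.000526), Il1rn (3.30), Casp12 (1.02), Ifi204 (0.99), Ninj1 (0.87), P2rx7 (0.81), P2rx4 (0.41), Nod1 (0.37) and Gbp2 (0.35). The lower ones were Il18r1 (-2.66), Nlrc3 (-2.49), Serpinb1a (-2.33), Il18rap (-2.15), Pstpip1 (-1.75), Panx1 (-1.16), Zbp1 (-1.02), Nlrc5 (-0.99), Il18 (-0.83), Il18bp (-0.83), Txnip (-0.74) and Dpp9 (-0.28). Nek7 was not called (0.20, adjusted p = 0.267). Nlrc3, Panx1, Pstpip1, Serpinb1a and Zbp1 thus rose with diet in eWAT and fell in iWAT. The B cell markers summed to 523 to 801 CPM in ND-fed iWAT and 3.57 to 82.6 in HFD-fed wild type iWAT. The T cell markers summed to 200 to 325 and 3.68 to 53.8 CPM. Their part in these changes was not tested. None of the 38 was called with genotype in iWAT by edgeR, beside 0% of all genes. DESeq2's Wald test called 3, beside 7.35% of all genes. An unadjusted p under 0.05 was reached by 5, beside 2468 of 14801 genes. Both shares were near those of all genes.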

How the data were processed

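The authors trimmed reads with cutadapt, kept those of at least 18 bases and aligned them with STAR (2.4.2a) to mm10. The deposited tables hold a gene-level count, an FPKM value and a gene length per library. The counter and its use of strand were not given in the sources used here. Directional mRNA libraries were made, 1 per sample. Groups came from the sample titles.

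Counts were tested with edgeR (4.0.16, R 4.3.3; glmQLFit and glmQLFTest, TMM), with the 3 groups of a depot in 1 fit, or all 6 groups for depot contrasts. Genes needed a mean of at least 1 CPM. P-values were Benjamini-Hochberg adjusted over all genes of the fit, and an adjusted p under 0.1, the study's threshold, was a call. CPM used TMM-scaled library sizes, log2 CPM a prior count of 2. "Groups apart" means that no library of 1 group reached the range of the other. The code was tested on simulated data.

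The 10 genes and the lists were chosen with earlier results of these data known. All 10 were named, as were pathway genes called in eWAT or iWAT and Il1b, Il18, Il1rn, Gsdme, Ninj1, Nek7 and P2rx7. The 5 motifs, and leaving out libraries labelled 17 or 18 weeks, were chosen after seeing the data. Alternatives were DESeq2 (1.42.0) as size factors or Wald test, no filter, at least 1 CPM in every library, scaling to the geometric mean of 13 macrophage markers, the replicate number as a block, the header series as a term or series 1 alone, only the groups compared, a threshold of 0.05, and leaving out each library.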

Additional observations from a re-analysis of the deposited data

Results flagged for a closer look

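Of 40 sets of 4 or 5 libraries of 1 gene and group, 3 held a library far from the others, where chance gives about 1 in 20. In eWAT Acod1-/- library 5, Casp1 was at 44.5 CPM against 15.4 to 21.9 in the other 4, and Naip2 at 15.4 CPM against 2.15 to 4.92. In iWAT HFD-fed wild type library 4, Nlrp3 was at 1.28 CPM against 0.0803 to 0.426.

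The diet effect differed between the depots for 8 genes by the interaction term of edgeR's fit over all 25 libraries, beside 29% of genes called (14% higher). The log2 difference, eWAT minus iWAT, was 3.88 for Aim2, 3.34 for Pycard, 2.55 for Nlrc4, 2.19 for Naip2, 1.82 for Naip5, 1.67 for Casp1, 1.56 for Gsdmd and 1.46 for Casp4, with adjusted p of 1.17e-05 (Aim2) to 0.021 (Naip5). Scaled to macrophage markers, 2 of the 8 were called, beside 76.4% of genes. The lymphocyte-marked iWAT ND libraries enter each of these values, and their part was not tested.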

How the results depend on the processing

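Scaling to macrophage markers changed the most. It called 5 in place of 8 genes with genotype in eWAT (beside 94.2% of all genes), 0 in place of 2 for Acod1-/- HFD against ND in eWAT (4.12%), 2 in place of 0 with genotype in iWAT (68.5%), 3 in place of 5 for Acod1-/- HFD against ND in iWAT (11.6%) and 2 in place of 8 for the diet difference between depots (76.4%), so the 2 genes in iWAT are fewer than the share of all genes. In the order Nlrc4, Aim2, Pycard, Casp1, Casp4, Gsdmd, Naip5, Naip2, the log2 changes turned to -1.28, -1.23, -0.18, -0.28, -1.12, -2.13, -1.20 and -0.51 with diet in eWAT, to 0.25, 0.89, 0.19, 0.62, 1.26, 1.48, 0.85 and 0.55 with genotype in eWAT and to 0.19, 0.31, 0.84, 0.11, 0.77, 0.39, 0.05 and 0.07 with genotype in iWAT, and Casp1 to -0.28 with diet in iWAT. This scaling moved the median of all genes by -2.47, 2.07, 0.88 and -0.88 in those 4 comparisons.

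With genotype in iWAT, DESeq2's Wald test and series 1 alone each called 2 genes in place of 0, and series 1 alone turned Pycard to 0.23 and Casp4 to 0.21. Leaving out the libraries labelled 17 or 18 weeks turned Casp4 to 0.60 and called 1 gene in place of 0 for the genotype difference between depots, but it left Acod1-/- iWAT with 1 library, which the fit assumes to vary like the other groups. The series as a term left 1 of 2 genes for Acod1-/- HFD against ND in eWAT. The causes were not tested.

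Leaving out 1 library gave 5 to 8 genes with genotype in eWAT, 1 to 2 for Acod1-/- HFD against ND in eWAT, 3 to 5 with diet and 0 to 2 with genotype in iWAT, 3 to 7 between depots on ND, 4 to 8 between depots in HFD-fed wild type and 0 to 2 for the genotype difference between depots. Except where printed above, the share of all genes called in fits that left out 1 library is not given. These counts can therefore not be set against it. In iWAT it gave -0.28 to 0.06 for Casp4 and -0.29 to 0.02 for Naip2 with diet, and -0.75 to 0.27 for Pycard and -0.58 to 0.27 for Casp4 with genotype.

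The deviations of same-numbered libraries had a median r of 0.137 between groups of a depot (-0.304 to 0.313, over 0.1 in 12 of 22 pairs), against -0.0196 for other numbers (20 of 82), and of 0.0813 between depots (5 of 11) against -0.0475 (7 of 41). Not every pair was over 0.1, and eWAT ND library 2 correlated best with libraries 5 (0.527 and 0.53), so the numbers were not taken as pairs. With the replicate block 6 in place of 7 genes were called with diet in eWAT, 8 with genotype as before, 1 in place of 2 for Acod1-/- HFD against ND in eWAT and 4 in place of 5 with diet in iWAT. Groups of 3 iWAT libraries and counts of 0 to 113 for Nlrp3 and Mefv limit what could be detected.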

Other observations

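The genes whose log2 CPM was most like each of the 8 genes over the 25 libraries (only genes averaging 5 CPM or more were searched) were as follows. These libraries share groups and depots, and no p is given. Casp1 was most like Ctsz, Iqgap1 and Evi2a (r = 0.93 each), Pycard like Ifi30 and Glipr1 (0.92) and Cdt1 (0.91), and Casp4 like Syngr2 (0.89), Rgs10 and Tmsb4x (0.86). Aim2 was most like Neurl3, Arhgap30 and Lrmp (0.96), and Nlrc4 like Pik3r5 (0.92), Calhm2 (0.91) and Themis2 (0.90). Naip2 was most like Nckap1l (0.95), Cd84 (0.94) and Mpeg1 (0.93), Naip5 like Matk and Dok1 (0.89) and Taok3 (0.88), and Gsdmd like Gmip (0.93), Rassf2 and March1 (0.91).

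Other pathway genes differed between depots. Gsdme was higher in eWAT than in iWAT on ND by 1.87 ± 0.43 (edgeR, adjusted p = 0.00285) and not called on HFD in wild type mice (-0.02, adjusted p = 0.975), and its diet effect was smaller in eWAT than in iWAT by 1.89 on the log2 scale (difference -1.89 ± 0.53, adjusted p = 0.0138), opposite in sign to the 8 genes above. P2rx7 was higher in eWAT on both diets in wild type mice (0.89, adjusted p = 0.0657, on ND and 1.24, adjusted p = 0.00635, on HFD). Il1a, at most 0.137 CPM in the other libraries, had 0.637 to 1.39 CPM in the 3 ND iWAT libraries, the libraries with the high lymphocyte marker sums.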
